A study of Mus musculus with 4 samples.

Results

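This account covers 10 genes of mouse liver that encode isoforms of cytochrome c oxidase subunits: Cox6b2 and Cox6b1, Cox6a2 and Cox6a1, Cox4i2 and Cox4i1, Cox7a1 and Cox7a2, and Cox8b and Cox8a. The members were taken by gene symbol, as every probe set that the array's annotation gives exactly 1 of these symbols. That rule found 16 probe sets of the 45101 on the array, and it found all 10 genes of the 18194 named there. The set was built around Cox6b2, which was chosen by its measured difference between the genotypes on these 4 arrays, so its values are given as a description. The other genes were added as its partner and as the other subunits that exist in a common and a tissue-restricted form.

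Liver RNA of 4 male C57BL/6J mice was hybridised to 4 one-colour Affymetrix arrays. The group labelled Cnot3+/- holds 2 animals heterozygous for Cnot3, and the group labelled wild-type holds 2 animals. At 12 weeks of age, on a normal chow diet, all 4 were deprived of food for 24 h, so both groups were fasted. The arrays are called Cnot3+/- 1, Cnot3+/- 2, wild-type 1 and wild-type 2, and the labels call the animals of each group biological replicates. The product of Cnot3 belongs to CCR4-NOT, the main complex that removes poly(A) tails from mRNA. The labels do not describe the Cnot3 allele further. With 2 arrays per group, the number of arrays limits the precision of every value.

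Cytochrome c oxidase, complex IV of the respiratory chain, passes electrons from cytochrome c to oxygen and pumps protons across the inner mitochondrial membrane. Its catalytic core is encoded in mitochondrial DNA, and smaller subunits encoded in the nucleus surround that core. Several of the nuclear subunits come in a form made in most tissues, among them liver, and a second form made mainly in heart and skeletal muscle, lung or testis. COX6B lies on the face of the enzyme that meets cytochrome c. Its common form is COX6B1, and COX6B2 is known as the testis form.

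The sequences of 2 promoters are shown because their genes encode the same subunit and stood so differently in these data. Each window runs from 250 bases before the annotated start to 50 bases after it, 5′ to 3′ on the gene's strand, in RefSeq's annotation of GRCm38.p6. Capitals mark the letters CCAAT, the CCAAT box, and GGGCGG, the GC box, on either strand (ATTGG and CCGCCC on the other), and no 2 marked matches overlap. The Cox6b2 window lies at chr7:4753045-4753344 on the minus strand, and the Cox6b1 window at chr7:30626065-30626364 on the minus strand.
Cox6b2: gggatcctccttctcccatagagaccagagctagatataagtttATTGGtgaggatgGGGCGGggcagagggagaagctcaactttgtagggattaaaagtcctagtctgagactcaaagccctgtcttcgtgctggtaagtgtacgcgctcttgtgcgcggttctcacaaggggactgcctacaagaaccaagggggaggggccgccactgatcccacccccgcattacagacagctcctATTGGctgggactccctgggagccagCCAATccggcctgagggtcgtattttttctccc
Cox6b1: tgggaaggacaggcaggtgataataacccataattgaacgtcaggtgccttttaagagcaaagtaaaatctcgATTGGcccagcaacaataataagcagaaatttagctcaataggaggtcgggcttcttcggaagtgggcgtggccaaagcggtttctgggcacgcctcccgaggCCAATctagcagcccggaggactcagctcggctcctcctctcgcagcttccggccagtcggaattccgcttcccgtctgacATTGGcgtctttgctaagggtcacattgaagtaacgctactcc

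Both windows hold 3 CCAAT boxes. In the Cox6b2 window they begin 206 and 9 bases before the start and at base 18 of the transcript, and a single GC box begins 193 bases before the start. In the Cox6b1 window they begin 177 and 74 bases before the start and at base 8 of the transcript, with no GC box. Of all 32851 promoter windows of this length in the table, 37.4% hold a CCAAT box and 35.7% a GC box. The Cox6b1 window also holds 1 match to CCGGAAG, the core bound by the ETS factor GABP, which is found in 8.9% of all windows. No match to that core was found in the Cox6b2 window. Windows were available for 7 of the 10 genes, and the GABP core was found in 3 of them: Cox6b1, Cox6a1 and Cox8a, which are common isoforms. Cox7a2, also a common isoform, had none. A palindromic NRF1 site, present in 4.6% of windows, was found in that of Cox6a1 alone among the 7. The letters TGACGTCA, a cAMP response element (1.8% of windows), and TTCNNNGAA, a STAT site (8.3%), were found in none of the 7. The TATA box letters TATAAA (13.6%) were found for Cox8b alone, beginning at base 5 of the transcript, after the annotated start. A match describes letters and is not evidence of binding.

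Median log2 values of the 4 arrays lay between 4.62 and 4.66. Hepatocyte markers were bright on every array, with Alb between 14.80 and 14.87 and Apoa1 between 14.18 and 14.34. Cnot3 itself, the altered gene, had log2 values of 7.70 and 7.86 in the arrays labelled Cnot3+/-, against 7.48 and 8.14 on wild-type arrays. The groups overlapped and the difference was -0.03 (SE 0.25), so this measurement does not bear out the genotype labels. Probes outside an altered part of a gene need not show a change, and each direction here rests on the arrays as labelled. Cnot3+/- 2 stood furthest apart, with 432 genes at least 2-fold away from Cnot3+/- 1, against 74 between the wild-type arrays. Macrophage markers were high on Cnot3+/- 2: their mean log2 level was 9.65 there and 7.54 in Cnot3+/- 1, while the wild-type arrays had 7.76 and 7.96. In whole liver, fewer cells of a type and less RNA per cell cannot be told apart.

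Cox6b2 stood far higher in both arrays labelled Cnot3+/-. Its log2 values were 8.04 and 7.82 in Cnot3+/-, against 4.53 and 4.45 on wild-type arrays. The groups were separated by a wide gap, while the Cnot3+/- arrays lay 0.22 apart and the wild-type arrays 0.09. On the log2 scale the difference was 3.44 (SE 0.14, n = 2 per group), which is 10.8-fold in RMA values (95% interval 8.46 to 13.9). The wild-type signal was not shown to be above background, so the fold between the transcripts themselves is not known from these values. This is the 3rd largest difference among 13379 genes tested with 1 probe set each.

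Chosen by its difference here, Cox6b2 had a limma adjusted p of 0.0126 over genes tested and 0.0186 over all 45101 probe sets. It was 1 of 2 genes called in the gene fit, a share of 0.0149%, and 1 of 2 probe sets called over the whole array, a share of 0.00443%. Without wild-type 1 the difference was 3.48 and the limma adjusted p was 1, and without wild-type 2 they were 3.39 and 0.678, so the call was lost in both cases. Without Cnot3+/- 1 they were 3.33 and 0.0235, and without Cnot3+/- 2 they were 3.55 and 0.0428. In each of these fits 1 group is a single array, which is assumed to vary like the other group, so they add no support. On all 4 arrays the call was also lost with no moderation of variances (ordinary t test, adjusted p = 0.722). The call was lost too with the replicate number as a block (limma adjusted p = 0.266). The wild-type values lay near the middle of each array, at percentile 48.4 in wild-type 1 and percentile 46.6 in wild-type 2, and those of Cnot3+/- lay at 86.5 and 84.7. No detection call was used. A single probe set reads Cox6b2, so no second probe set checks it.

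**Figure D1:**
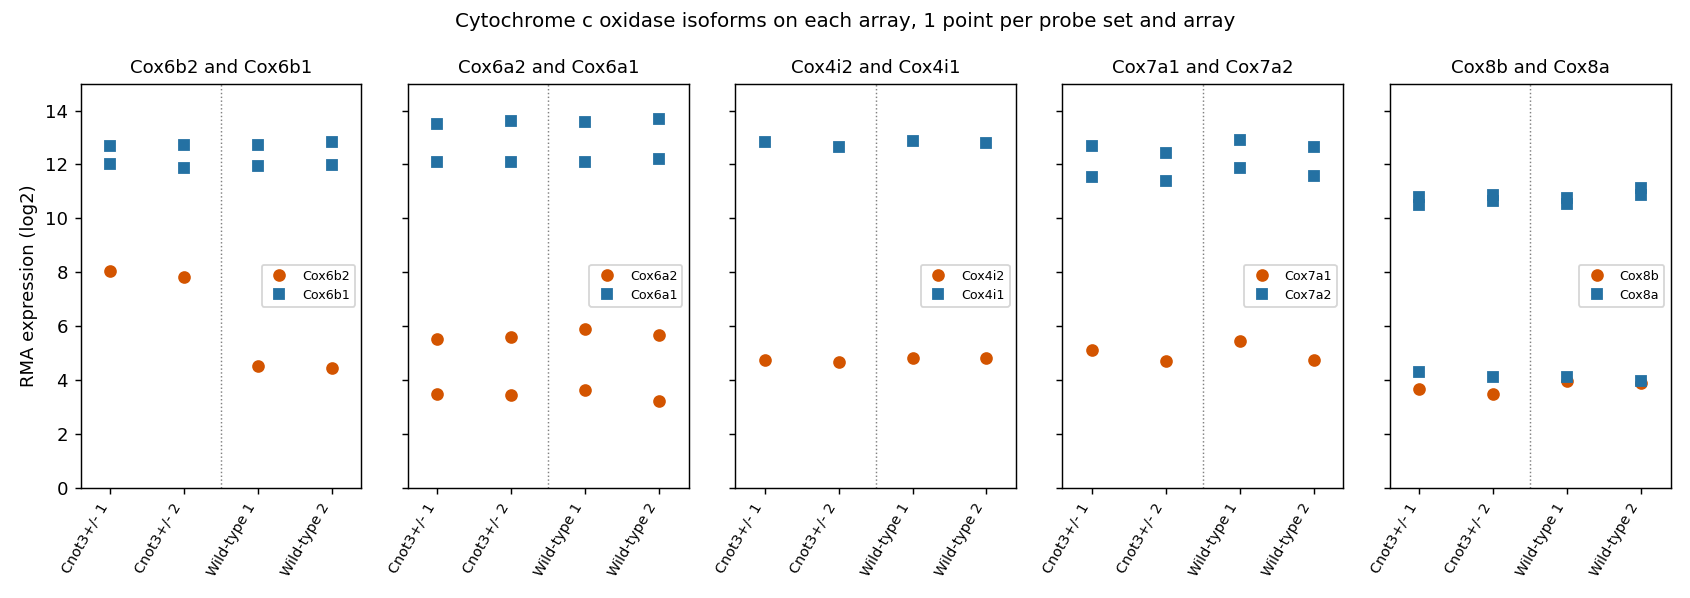
RMA expression on the log2 scale (vertical axis) of the 16 probe sets on each array, in 5 panels with the tissue-restricted isoform (orange circles) and the common isoform (blue squares) of 1 subunit each. The Cox6b2 points lie at 8.04 and 7.82 in the Cnot3+/- arrays and at 4.53 and 4.45 in the wild-type arrays, while no other probe set differs by more than 0.34 between the group means.

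Cox6b1, the common form of the same subunit, overlapped between the groups. Its brighter probe set had log2 values of 12.67 and 12.72 in Cnot3+/-, against 12.71 and 12.83 on wild-type arrays. The difference was -0.07 (SE 0.13), with a 95% interval from -0.40 to 0.25. A second probe set had values of 12.01 and 11.86 in Cnot3+/-, against 11.95 and 11.98 on wild-type arrays, and differed by -0.03 (SE 0.13). Neither probe set separated the genotypes, and both intervals leave out a rise or fall by a factor of 2. The log2 ratio of Cox6b2 to Cox6b1 within an array was -4.63 and -4.90 in Cnot3+/-, against -8.18 and -8.38 on wild-type arrays. That ratio compares 2 probe sets whose brightness per transcript is unknown, so its shift of 3.51 between the groups can be read and its level cannot.

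COX6A, a small subunit that spans the membrane, has a form made in liver and most tissues, Cox6a1, and a form made in heart and skeletal muscle, Cox6a2. Cox6a2 had log2 values of 5.52 and 5.59 in Cnot3+/-, against 5.88 and 5.66 on wild-type arrays. The groups did not overlap, and the difference was -0.22 (SE 0.14, limma adjusted p = 0.994). A dimmer Cox6a2 probe set, whose name marks it as one that can match several transcripts, differed by 0.02 (SE 0.17) and overlapped. Cox6a1 had values of 13.48 and 13.63 in Cnot3+/-, against 13.58 and 13.70 on wild-type arrays, a difference of -0.08 (SE 0.14). The second Cox6a1 probe set, also named as one that can match several transcripts, differed by -0.07 (SE 0.13), and its groups did not overlap. Each Cox6a1 interval lay within a factor of 2 of wild-type.

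COX4, a regulatory subunit that joins the enzyme early in its assembly, has the common form Cox4i1 and the form Cox4i2, known from lung and from cells short of oxygen. Cox4i2 had log2 values of 4.75 and 4.69 in Cnot3+/-, against 4.81 and 4.82 on wild-type arrays. Those groups did not overlap, yet the difference was -0.10 (SE 0.13, limma adjusted p = 0.996), a smaller step than its SE. Cox4i1 had values of 12.84 and 12.65 in Cnot3+/-, against 12.88 and 12.81 on wild-type arrays, overlapping between the groups, with a difference of -0.10 (SE 0.14).

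COX7A also has a form found in heart and skeletal muscle, Cox7a1, and a form found in liver and elsewhere, Cox7a2. Cox7a2 had log2 values of 12.68 and 12.44 in Cnot3+/-, against 12.92 and 12.64 on wild-type arrays, and differed by -0.22 (SE 0.17). A second Cox7a2 probe set had values of 11.52 and 11.38 in Cnot3+/-, against 11.88 and 11.59 on wild-type arrays. On that probe set the groups did not overlap, with a difference of -0.28 (SE 0.16, limma adjusted p = 0.994). Cox7a1 had values of 5.11 and 4.69 in Cnot3+/-, against 5.45 and 4.76 on wild-type arrays. It was the least steady of the isoforms, with gaps of 0.42 between the Cnot3+/- arrays and 0.68 between the wild-type arrays, both larger than the difference of -0.20 (SE 0.27).

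COX8, a small membrane subunit, has the common form Cox8a and the heart and muscle form Cox8b. Cox8b was too dim for the gene fit. It had log2 values of 3.68 and 3.50 in Cnot3+/-, against 3.95 and 3.90 on wild-type arrays, and the groups did not overlap. Its difference was -0.34 (SE 0.14, limma adjusted p = 0.994), and its unadjusted p of 0.0496 was the smallest among the isoforms after that of Cox6b2. Cox8a had values of 10.49 and 10.66 in Cnot3+/-, against 10.52 and 10.87 on wild-type arrays, with a difference of -0.12 (SE 0.17). A second bright Cox8a probe set, whose name marks it as one that can match several transcripts, differed by -0.13 (SE 0.17). A dim Cox8a probe set, at 4.30 and 4.10 in Cnot3+/- and 4.10 and 3.97 in wild-type, differed by 0.16 (SE 0.14), in the other direction.

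**Figure D2:**
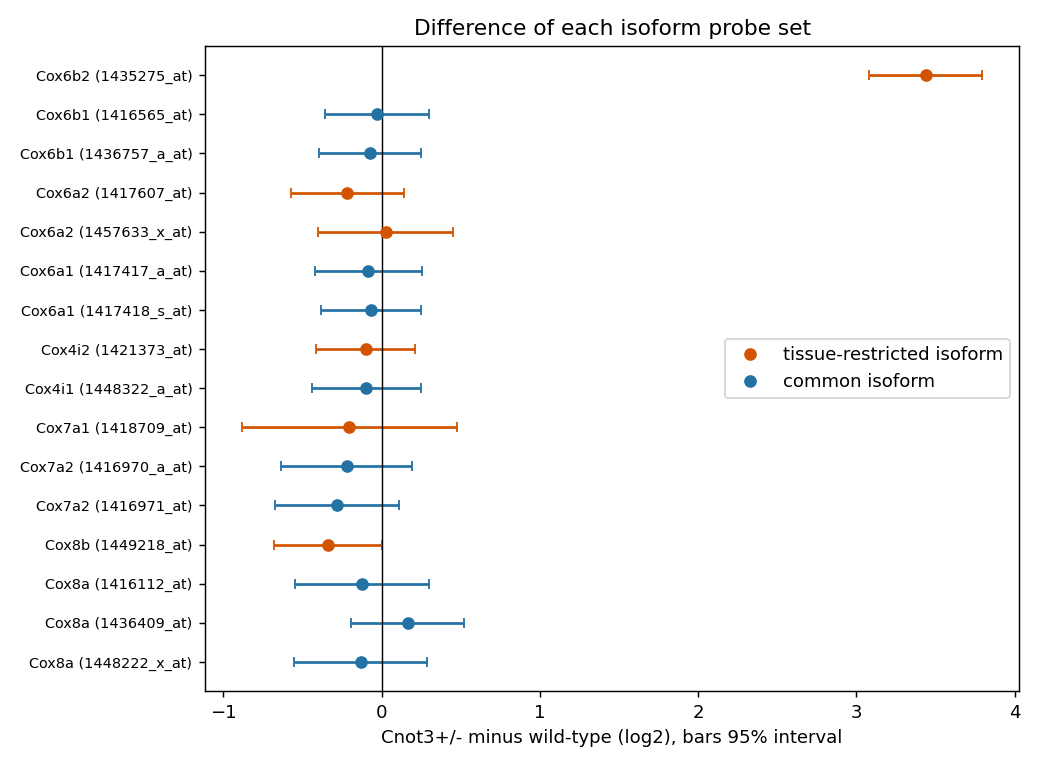
Difference between the group means (Cnot3+/- minus wild-type, log2, horizontal axis) of each of the 16 probe sets, with bars for the 95% interval of the limma fit over all probe sets; orange marks tissue-restricted and blue common isoforms. Cox6b2 stands at 3.44, and the other 15 lie between -0.34 and 0.16.

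Counted over probe sets, 1 of the 16 was called higher and 0 were called lower by limma. The 1 called was Cox6b2, around which the set was built, and 0.00443% of all probe sets were called. Without Cox6b2, 13 of 15 probe sets were lower and 2 higher, with a median difference of -0.10. At an unadjusted p under 0.05, 1 of these 15 was lower (Cox8b) and 0 were higher, where 3.90% of all probe sets had such a p. Groups did not overlap in 6 of the 16 probe sets, 1 higher and 5 lower. Of all probe sets on the array 13.2% were higher and 17.9% lower without overlap, 31.1% in all, so full separation of 2 arrays from 2 others is common here. In the gene fit 9 of the 10 genes passed the filter on dim values, all but Cox8b. Of the 8 tested besides Cox6b2, all 8 were lower, from -0.22 for Cox7a2 to -0.07 for Cox6b1, with a median of -0.11 against -0.01 over all genes tested. Groups did not overlap in 2 of these 8, Cox6a2 and Cox4i2, both lower, where 17.4% of all genes tested were lower and 14.1% higher without overlap, 31.5% in all. At an unadjusted p under 0.05 there were 0 of the 8, where 3.59% of all genes tested had such a p. These shifts are of the size of their SE, and the smallest limma adjusted p among the 8 was 0.999. The direction of 3 of the 8 turned when 1 array was left out: Cox7a1 stood at 0.14 without wild-type 1 and at 0.0058 without Cnot3+/- 2, Cox8a at 0.05 without wild-type 2, and Cox4i1 at 0.0011 without Cnot3+/- 2.

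The difference of each tissue-restricted isoform was also set against that of its common partner on the same arrays. The log2 ratio of Cox6a2 to Cox6a1 shifted by -0.13, that of Cox4i2 to Cox4i1 by -0.0032, that of Cox7a1 to Cox7a2 by 0.02 and that of Cox8b to Cox8a by -0.22. In an exact two-sided permutation test over the 4 arrays, p was 0.667 for the Cox8b pair and 1 for the other 3, and adjusted over these 4 pairs every p was 1. With 2 arrays against 2 that test cannot go below 0.333. The Cox6b pair, chosen for its difference, was not tested.

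**Figure D3:**
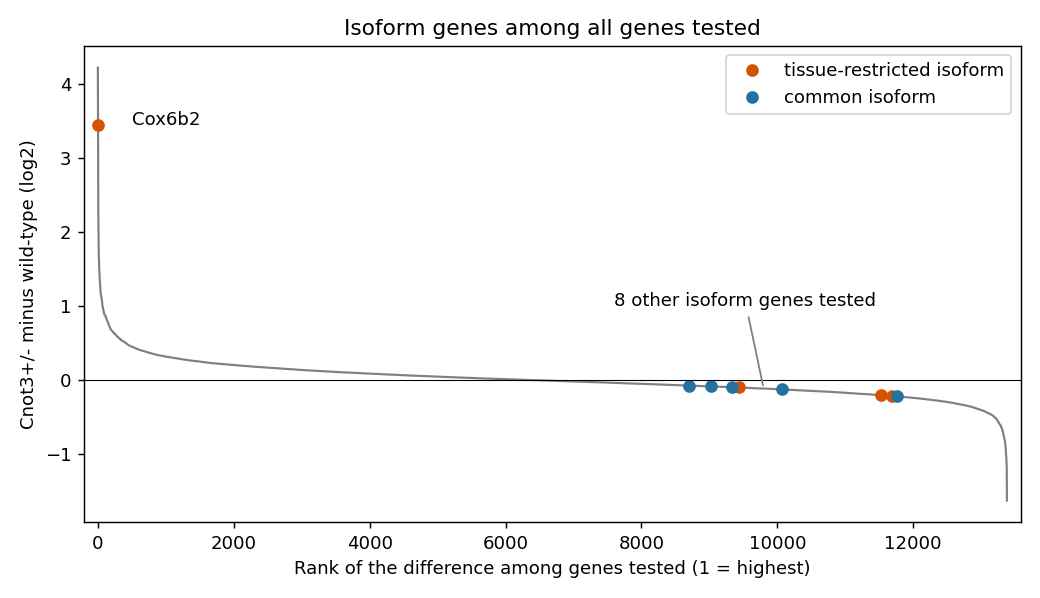
Difference between the group means (Cnot3+/- minus wild-type, log2, vertical axis) of all 13379 genes tested, ranked from highest to lowest along the horizontal axis, with the 9 isoform genes tested as points (orange tissue-restricted, blue common). Cox6b2 ranks 3 at 3.44, and the other 8 lie on the flat part of the curve, from -0.22 to -0.07.

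The remaining complex IV subunits stood close to wild-type. Of 12 listed, 8 had a probe set of their own name and 7 passed the filter on dim values. In the gene fit 1 of the 7 was higher and 6 were lower, with a median of -0.11. Limma called 0 of them (0 also at an unadjusted p under 0.05). Groups did not overlap for 1 higher and 2 lower of the 7, against 31.5% of all genes tested in either direction. Cox5a, a nuclear subunit bound to the core, differed by -0.06 (SE 0.14), Cox5b, which binds zinc, by -0.12 (SE 0.14), and Cox6c by -0.11 (SE 0.14). Cox7a2l differed by -0.06 (SE 0.16), and Ndufa4, a subunit at the edge of the enzyme, by -0.21 (SE 0.17). Cox7c was the 1 higher, at 0.31 (SE 0.16), with values of 5.70 and 5.47 in Cnot3+/-, against 5.36 and 5.18 on wild-type arrays. The probe set used there carries a name for shared transcripts. Cox8c, known from testis, had values of 7.64 and 7.71 in Cnot3+/-, against 7.75 and 7.89 on wild-type arrays, and differed by -0.15 (SE 0.14). Cox7b2, also known from testis, was too dim to be tested, at 2.51 and 2.36 in Cnot3+/- and 2.89 and 2.56 in wild-type.

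Genes of the assembly factors, which insert copper and heme and build the subunits together, were lower in 16 of the 20 tested and higher in 4, with a median of -0.17. Of all 13379 genes tested, 6975 were lower, with a median of -0.01. Limma called 0 of the 20, where 0.0149% of all genes tested were called. At an unadjusted p under 0.05 there were 0 of the 20, where 3.59% of all genes tested had such a p. The largest differences were those of Coa3, which helps to stabilise the newly made core subunit, at -0.34 (SE 0.25), and of Coa6, a copper chaperone factor, at -0.33 (SE 0.18). Coa3 stood at 8.15 and 7.92 in Cnot3+/-, against 8.70 in wild-type 1 and 8.06 in wild-type 2. Over the list, Cnot3+/- 1 and Cnot3+/- 2 lay 0.10 and 0.19 below the wild-type mean, while wild-type 1 lay 0.13 above it and wild-type 2 0.13 below, so the groups overlapped. Groups did not overlap in 4 of the 20, all lower, where 17.4% of all genes tested were lower without overlap, and 31.5% in either direction.

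No testis gene tested besides Cox6b2 was called, where 2 of all 13379 genes tested were called (0.0149%). Of 17 germ cell markers, 10 were too dim to be tested, among them Tnp1, the transition protein of spermatid chromatin, Odf1, a sperm tail protein, and Ddx4, a helicase of germ cells. Of the 7 tested, 1 was higher and 6 lower, and limma called 0. Groups did not overlap for 4 of the 7, all lower, where 17.4% of all genes tested were lower without overlap. At an unadjusted p under 0.05, 1 was lower and 0 were higher, where 3.59% of all genes tested had such a p. The gene lower at that p was Tssk1, a kinase of spermatids, at -0.39 (SE 0.13). Tssk6 followed at -0.35 (SE 0.16). Not every marker was dim: Prm1 stood at 7.79 and 7.45 in Cnot3+/-, against 7.96 and 7.81 on wild-type arrays. The Prm1 probe set carries a name for shared transcripts. The mean log2 level of the 17 markers was 3.83 and 3.70 in Cnot3+/-, against 3.88 and 3.87 on wild-type arrays. In the list of testis forms of energy genes, 2 of 9 could be tested, Cox8c and Gapdhs, the sperm glyceraldehyde phosphate dehydrogenase, which differed by -0.11 (SE 0.14). The testis cytochrome c gene Cyct was at 2.96 and 3.09 in Cnot3+/- and 2.99 and 2.95 in wild-type, below the threshold of 4.06 for dim probe sets.

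Markers of muscle, heart and brown fat, where some of the other isoforms are at home, gave 0 calls, where 0.0149% of all genes tested were called. Of 18 skeletal muscle and heart markers, 9 were tested, 3 higher and 6 lower, with a median of -0.05. Limma called 0 of these (0 also at an unadjusted p under 0.05). Groups did not overlap for 1 higher and 3 lower of the 9, against 31.5% of all genes tested in either direction. The largest differences were those of the muscle myosin light chain gene Mylpf at -0.36 (SE 0.21) and the troponin gene Tnni2 at -0.32 (SE 0.13). The myosin heavy chain genes Myh4, Myh6 and Myh7 were too dim to be tested. Of 7 brown fat markers on the array, 4 were tested and 0 called (0 at an unadjusted p under 0.05), and the uncoupling protein gene Ucp1 was dim, at 3.46 and 3.53 in Cnot3+/- and 3.50 and 3.67 in wild-type. The lipid droplet gene Cidea differed by -1.63 (SE 1.16), with values of 4.67 and 4.56 in Cnot3+/-, against 8.09 in wild-type 1 and 4.39 in wild-type 2. The wild-type 1 value alone set that difference. The fatty acid elongase gene Elovl3 differed by -0.41 (SE 0.41).

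Genes induced by low oxygen, the setting in which Cox4i2 is known to rise, went in both directions. Of 18 tested, 8 were higher and 10 lower, with a median of -0.11 and 0 calls by limma. At an unadjusted p under 0.05, 1 was higher and 1 lower, where 3.59% of all genes tested had such a p. Groups did not overlap for 2 higher and 7 lower genes, where 14.1% of all genes tested were higher and 17.4% lower without overlap. The glycolytic kinase gene Hk2 had the largest difference, 0.60 (SE 0.49), and Cnot3+/- 2 alone stood high, at 6.51. The prolyl hydroxylase gene Egln3 differed by -0.45 (SE 0.15), and its groups did not overlap. Lonp1, the mitochondrial protease that degrades COX4I1 in low oxygen, had values of 9.49 and 9.44 in Cnot3+/-, against 9.28 and 9.32 on wild-type arrays. Its groups did not overlap, with a difference of 0.16 (SE 0.13, limma adjusted p = 0.999), and it was named after its values were seen.

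**Figure D4:**
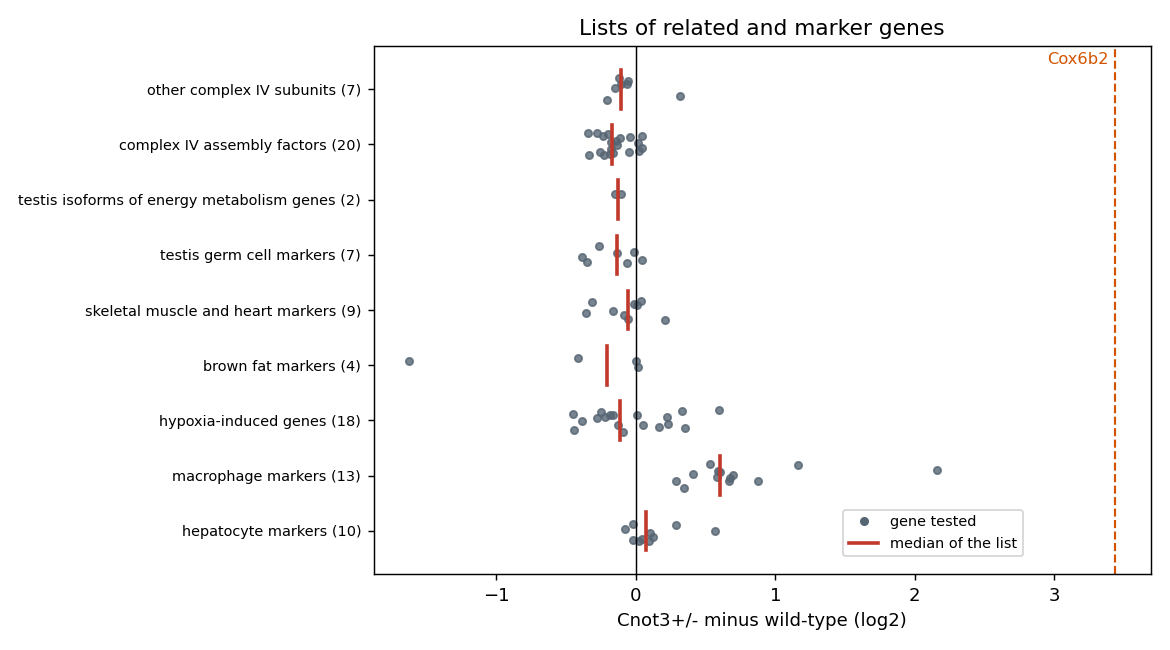
Difference between the group means (Cnot3+/- minus wild-type, log2, horizontal axis) of each gene tested (grey points) in 9 lists, with the number tested in brackets, the median of each list as a red bar and the difference of Cox6b2 as a dashed line. Testis germ cell markers lie between -0.39 and 0.04, macrophage markers between 0.29 and 2.16, and Cox6b2 at 3.44.

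Macrophage markers had the largest median difference of the 9 lists. All 13 were higher, with a median of 0.60 and 0 calls by limma (0 at an unadjusted p under 0.05). Groups did not overlap in 2 of the 13, both higher, near the 14.1% of all genes tested that were higher without overlap. The scavenger receptor gene Marco differed by 2.16 (SE 0.97) and Cd5l, a secreted macrophage protein gene, by 1.16 (SE 0.64). The summed level of the 13, on the linear scale, was 15936 in Cnot3+/- 2 but 4149 in Cnot3+/- 1, and the wild-type arrays held 4701 and 5345. On the same arrays Cox6b2 stood at 7.82 in Cnot3+/- 2 and 8.04 in Cnot3+/- 1. The part of macrophage RNA in the Cox6b2 difference was not tested. Hepatocyte markers had 7 of 10 genes higher, with a median of 0.07 and 0 calls (0 at an unadjusted p under 0.05). Groups did not overlap for 3 higher and 1 lower of the 10, against 31.5% of all genes tested in either direction. Tat, an enzyme of tyrosine breakdown, differed by 0.56 (SE 0.27) and Ahsg, which encodes the plasma protein fetuin A, by 0.29 (SE 0.13).

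The pattern of Cox6b2 over the 4 arrays was most like that of Lcn2, which encodes the iron-siderophore-binding protein lipocalin 2. Likeness was the root mean square distance between log2 values, each gene centred on its own mean over the 4 arrays, and genes near Cox6b2 by this measure share its large difference. The distance was 0.42 for Lcn2, at 9.52 and 9.71 in Cnot3+/-, against 5.40 and 5.40 on wild-type arrays. Next came the plasma protein genes Orm2 at 0.65, Saa1 at 0.66 and Saa2 at 0.72, and the interferon-induced protease gene Usp18 at 0.78. The wild-type arrays were unequal for both Saa genes, with Saa1 at 13.26 and 12.92 in Cnot3+/-, against 9.23 and 10.91 on wild-type arrays, and Saa2 at 12.29 and 11.60 in Cnot3+/-, against 7.09 and 8.84 on wild-type arrays. None of the 5 is a respiratory chain gene.

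Cox6b2 and Cnot3 share chromosome 7, 21 tested genes apart when genes are ordered as in GRCm38.p6. The 10 nearest tested genes, 5 on each side, differed by -0.09 to 0.22, with a median of -0.02, and limma called 0 of them (0 at an unadjusted p under 0.05). On the side of Cnot3, the next tested gene is Kmt5c, a histone H4 lysine methyltransferase gene, at 6.88 and 6.71 in Cnot3+/-, against 6.54 and 6.61 on wild-type arrays. Kmt5c differed by 0.22 (SE 0.14, limma adjusted p = 0.999). On the other side the next tested gene is the cytokine gene Il11, at 4.50 and 4.40 in Cnot3+/-, against 4.43 and 4.49 on wild-type arrays, with a difference of -0.01 (SE 0.13). Groups did not overlap for Kmt5c and Ppp6r1, 2 of the 10, both higher and both on the side of Cnot3. Of all genes tested, 14.1% were higher without overlap, and 31.5% did not overlap in either direction. Of the 10 isoform genes, 5 lie on chromosome 7: Cox6b2, Cox7a1, Cox6b1, Cox6a2 and Cox8b. Cox7a1 and Cox6b1 are 250 and 273 tested genes away from Cox6b2, and Cox6a2 is 864 away.

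**Figure D5:**
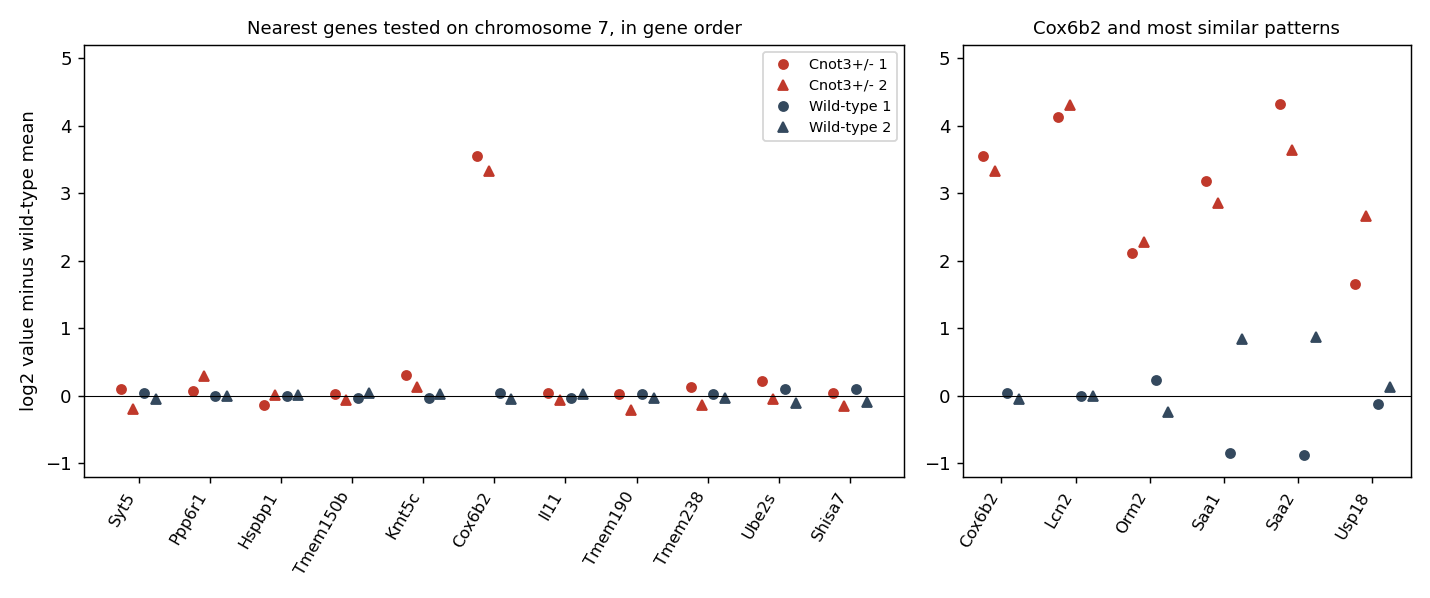
Log2 value minus the wild-type mean of each gene (vertical axis) on the 4 arrays, red for Cnot3+/- and dark blue for wild-type, circles for replicate 1 and triangles for replicate 2. Left, Cox6b2 with the 5 nearest tested genes on each side of chromosome 7, whose mean differences lie between -0.09 and 0.22; right, Cox6b2 with the 5 genes of most similar pattern, led by Lcn2.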

How the data were processed

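Expression was measured on 1 array per animal. The authors deposited log2 values, normalized with RMA according to the labels and per the submitters' processing notes, with version and scope of that step not given in the sources used here. All 4 columns were mapped by accession, with 0 left over. Of 45101 probe sets, 34958 had 1 gene symbol in the platform's annotation, 932 several and 9211 none.

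Values were used without further normalization. For the gene fit, the dimmest 40% of probe sets by mean value over the arrays (up to 4.06) were left out. Each gene was then read by its brightest probe set, and by an _x_at or _s_at one only if it had no other. This gave 13379 genes. Members were also fitted with all 45101 probe sets, and their differences, SE and intervals come from that fit. List, neighbour and similarity values come from the gene fit.

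Cnot3+/- was compared with wild-type in limma 3.58.1 (R 4.3.3; lmFit and eBayes, two-sided, 2 residual degrees of freedom), with Benjamini-Hochberg adjustment over all features of a fit and a threshold of 0.05. SE is moderated and intervals cover 95%. The fit was tested on simulated data. Members and gene lists were chosen with earlier results of these data known. Named are all members, the largest 2 differences of a list, the 5 most similar genes and the 5 nearest tested genes on each side. Bright or dim defining markers (Alb, Apoa1, Prm1, Tnp1, Odf1, Ddx4, Cyct, Cox7b2, Ucp1 and the Myh genes) were named after their values were seen. The alternatives were other filters, another normalization, averaged or single probe sets, other variance estimates, a replicate block and leaving out each array.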

Additional observations from a re-analysis of the deposited data

How the results depend on the processing

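The Cox6b2 difference stayed between 3.33 and 3.55 on the log2 scale when any 1 array was left out, with 0 to 1 isoform genes and 0 to 38 genes called. The call was lost without wild-type 1 and without wild-type 2, where 0 genes passed, and the 38 came without Cnot3+/- 1. With no moderation of variances Cox6b2 kept its difference of 3.44, with an adjusted p of 0.722 by an ordinary t test. There, 0 isoform genes passed. With the replicate number as a block, the difference was 3.44 with an adjusted p of 0.266, and 0 isoform genes and 0 genes passed. The deviations of the arrays numbered 1 correlated at 0.16 over genes. With only 2 pairs this does not show that the numbers link animals. Of the other 8 alternatives, 2 leave the Cnot3+/- group with a single array. In the rest the limma adjusted p was at most 0.0186. It was lowest, 0.0092, with the dimmest 60% of probe sets left out. Cox6b2 passed that filter only through its Cnot3+/- values, as its wild-type values lay at percentiles 48.4 and 46.6. That setting therefore adds no support. Of 94 values of the other isoform genes under alternatives, 90 kept their direction without a call and 4 turned, all with 1 array left out. Cox7a1 ran from -0.55 to 0.14, Cox8a from -0.30 to 0.051 and Cox4i1 from -0.19 to 0.0011. The dim wild-type signal of Cox6b2 limits how well its fold is known.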
